A study of Mus musculus with 9 samples.

Results

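The 6 RNA-seq libraries titled control and clone 2 in a study of 4T1 cells, a mouse mammary carcinoma line, fell on either side of a split that no single label makes, and that split is described here. It was drawn from the measured expression values of the same 6 libraries, out of 9 in the series, so every difference between its sides is a description without a test. State A holds the control library coded NTC, the clone 2 library coded NTC and the clone 2 library coded C-20. State B holds the control libraries coded C-20 and C-26 and the clone 2 library coded C-26. The 3 libraries titled clone 3 were not used to draw the split and were placed on the same axis afterwards.

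Plasmids, either a control plasmid or one for overexpression of the microRNA miR-204-5p, were transfected into 4T1 cells, and stable clones were selected with Zeocin. The libraries titled control carry the genotype label control, those titled clone 2 are labelled as overexpressing miR-204-5p by an average of 150-fold over control, and those titled clone 3 by 525-fold. Each overexpressing title stands for 1 clone of 1 cell line. Polyadenylated RNA was sequenced as paired reads, and each title has 1 library of each code, NTC, C-20 and C-26, whose meaning the labels do not give. Every pairing of a title with a code has a single library, and nothing in the labels says that libraries came from separate cultures, so the spread within a state may be technical. Both NTC libraries lie in state A and both C-26 libraries in state B, so code and state cannot be told apart for these 4, and the C-20 libraries alone part the state from the code.

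Some of the genes that mark the split belong to processes with well-known roles. Small nucleolar RNA host genes carry, in their introns, the small RNAs that guide chemical modification of ribosomal RNA, and many of their spliced transcripts are removed by nonsense-mediated decay, which depends on translation. The integrated stress response slows translation while raising the transcription factor ATF4, which activates amino acid transporters, biosynthetic enzymes, tRNA synthetases and the stress genes Ddit3 and Trib3. Cholesterol synthesis genes are activated together by the sterol-sensing transcription factor SREBP2, and growing cells use ribosome biogenesis factors and cell cycle genes in step with proliferation.

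The start-site sequences of 3 genes that stood higher in state A are shown. They show a host gene without an E-box, a host gene with one, and an ATF4 target with a match to the C/EBP-ATF response element. These matches are not typical of the host genes or ATF4 targets with a 2-fold gap, as given after the gene values. Each runs from 250 bases before to 50 bases after a transcription start in RefSeq (GRCm38.p6), 5′ to 3′ on the strand of the gene, and capitals mark the motif that was found.
Snhg12, chr4:132308428-132308727, plus strand: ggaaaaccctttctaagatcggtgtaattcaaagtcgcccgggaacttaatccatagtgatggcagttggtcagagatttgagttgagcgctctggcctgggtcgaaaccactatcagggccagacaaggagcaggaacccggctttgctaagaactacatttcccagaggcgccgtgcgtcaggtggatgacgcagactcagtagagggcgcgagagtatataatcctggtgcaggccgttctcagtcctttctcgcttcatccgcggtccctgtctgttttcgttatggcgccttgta
Gm11974 (Snhg15 in RefSeq), chr11:6528711-6529010, minus strand: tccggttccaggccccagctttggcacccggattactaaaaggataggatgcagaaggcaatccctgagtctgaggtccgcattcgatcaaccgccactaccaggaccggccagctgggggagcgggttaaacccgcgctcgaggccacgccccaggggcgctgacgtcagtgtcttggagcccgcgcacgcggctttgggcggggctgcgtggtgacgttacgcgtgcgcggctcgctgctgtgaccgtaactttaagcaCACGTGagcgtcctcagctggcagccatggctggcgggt
Trib3, chr2:152344011-152344310, minus strand: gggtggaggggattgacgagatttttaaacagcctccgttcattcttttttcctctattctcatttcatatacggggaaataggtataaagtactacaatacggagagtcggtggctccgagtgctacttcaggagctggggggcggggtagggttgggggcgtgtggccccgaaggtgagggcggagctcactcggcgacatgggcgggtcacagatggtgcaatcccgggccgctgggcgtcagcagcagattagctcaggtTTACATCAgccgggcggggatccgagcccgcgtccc
The capitals are an E-box, CACGTG, in the Gm11974 window and the reverse complement of a C/EBP-ATF response element, TGATGNAA, in the Trib3 window. The Snhg12 window holds neither, nor the sterol regulatory element TCACNCCAC. How often these motifs occur in all windows is given after the gene values.

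Expression was read as FPKM, fragments scaled to transcript length and to the mapped fragments of a library, for 10783 of 24067 genes that reached an FPKM of 1 or more in at least 3 of the 9 libraries. On log2(FPKM + 1), the first principal component of the 6 libraries held 56.1% of their variance and placed all 3 state A libraries above all 3 state B libraries. On this axis, scaled from 0 for the lowest to 100 for the highest of the 6, control NTC stood at 100, clone 2 NTC at 67.2 and clone 2 C-20 at 43.5. Control C-20 stood at 3.05, clone 2 C-26 at 1.54 and control C-26 at 0. State B was thus compact, with a spread of 3.05, while state A was spread over 56.5 positions. The closest libraries of the 2 states, clone 2 C-20 and control C-20, were 40.5 positions apart, and clone 2 C-20 was 23.6 positions from the next state A library. On this axis the picture is therefore of a tight group and a graded series of 3 libraries rather than of a pair of equally tight groups. It depended in part on control NTC. With that library left out and placed afterwards, control C-26 stood at 0, control C-20 at 0.43 and clone 2 C-26 at 15.2. The state A libraries then ran from 68.4 to 100.

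**Figure D1:**
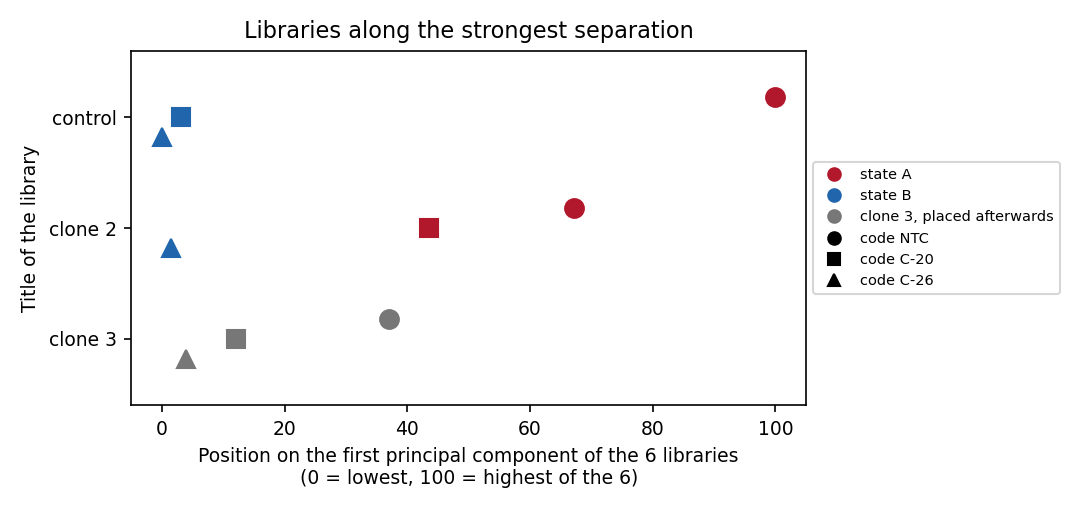
Positions of the 9 libraries on the first principal component of the 6 control and clone 2 libraries, scaled from 0 to 100, with 1 row per title, colour for the state and marker shape for the code. The 3 state B libraries lie between 0 and 3.05, the state A libraries between 43.5 and 100, and clone 3 NTC, placed afterwards, at 37.0.

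The second component held 23.3% of the variance and separated the titles, with control libraries at 0 to 28.2 and clone 2 libraries at 61.2 to 100 on its own scale. Pearson correlations across genes ran from 0.979 to 0.984 within state B, from 0.954 to 0.980 within state A and from 0.924 to 0.975 between the states. Clone 2 C-26 correlated best with control C-26, at 0.982, and control NTC correlated best with clone 2 NTC, at 0.959. Clone 2 C-20 correlated best with clone 2 NTC, at 0.980, and control C-20 with control C-26, at 0.984. Each library therefore had its best match on its own side, and for 2 of the 6 that match carried another title. Yet clone 2 C-20 correlated less with control NTC of its own state, at 0.954, than with any state B library. Its correlation was 0.960 with control C-20, 0.962 with control C-26 and 0.975 with clone 2 C-26. When the variance of the 6 libraries was divided by the labels, title took 20.9%, code 54.4% and the remainder 24.6%. The split itself took 48.9%, which overlaps all of these. Code divides the libraries into more groups than title or the split does, so these shares are not directly comparable.

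Clone 3 repeated the order of the codes. The clone 3 library coded NTC was placed at 37.0, C-20 at 12.0 and C-26 at 3.99. NTC stood above C-20 and C-20 above C-26 within each of the 3 titles. In control the step from C-20 to C-26 was only 3.05 positions, and it turned when control C-26 was left out and placed afterwards, with C-20 at 4.56 and C-26 at 6.11. The clone 3 NTC library fell between the states, nearer to clone 2 C-20 than to any state B library, and clone 3 C-26 lay close to the state B libraries, above or below the highest of them depending on the setting.

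All 9 libraries expressed epithelial genes. Krt18, a simple epithelial keratin, ran from 191 to 697 FPKM and Cdh1, E-cadherin, from 41.9 to 81.8. Of 12 endothelial markers, 6 (Cdh5, Kdr, Tek, Emcn, Vwf and Robo4) stayed under 0.1 FPKM throughout, and the list summed to 12.0 to 20.97 in state A, 20.4 to 24.3 in state B and 21.7 to 23.6 in clone 3, with Egfl7 the highest member. Of 14 fibroblast markers, 7 including Col1a2, Col3a1 and Pdgfrb stayed under 0.1, and the list summed to 56.7 to 131 in state A, 71.3 to 114 in state B and 89.3 to 140.2 in clone 3, with Fbln2 the highest member. Of the 21 leukocyte markers in the table, Cd3e was at 0 in all libraries and 12, Cd3e among them, stayed under 0.1. That list summed to 5.34 to 10.9 in state A, 6.80 to 12.6 in state B and 5.68 to 7.97 in clone 3, and its part in the split was not tested. In bulk RNA, fewer cells of a type and less RNA per cell cannot be told apart. The Mir204 gene itself was listed at 0 in all 9 libraries, so these values offer no check of the overexpression.

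Sums of FPKM ran from 445902 to 505555 in state A and from 439018 to 445115 in state B, without overlap but nearly touching. Genes above 0 numbered 15137 to 16923 in state A and 16435 to 18283 in state B. Receptor genes of the olfactory and vomeronasal systems were above 0 for 2.55% to 6.81% of 1453 genes in state A and for 6.06% to 16.4% in state B. The states overlapped in both of the last measures, and the part of these measures in the split was not tested.

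Among the 10783 genes, 1869 (17.3%) had all 3 state A libraries above all 3 state B libraries, and 2372 (22%) had all 3 state B libraries above all 3 of state A. Of the genes that separated the states, 44.1% were higher in state A, but the balance turned with the scaling. This share was 55.8% with median ratio scaling of the libraries, 51.8% on the authors' quantile-normalized values and 52.9% with a length and GC correction. A gap is the distance on log2(FPKM + 1) between the lowest library of the higher state and the highest library of the lower one. It reached 2-fold for 25 genes higher in state A (0.232% of those tested) and 16 genes higher in state B (0.148%). Since the split was chosen on these values, nothing is read from these shares. Just inside the 2-fold limit were Cdyl, with a gap of 1.00, and Idh1, with -1.02, and just outside it were Aldh1l2, at 0.99, and Tm7sf2, at -0.99, negative where state B was higher. The 25 and 16 genes changed in number with single libraries and with the offset of the log scale. With a pseudocount of 0.1 in place of 1 they numbered 32 and 41, and with median ratio scaling 31 and 11. Without clone 2 C-20 they numbered 62 and 102, without clone 2 C-26 they numbered 59 and 48, without control NTC 39 and 22, and without any one of control C-20, control C-26 and clone 2 NTC 25 to 27 and 27. Leaving out a library can only keep or widen a gap, so these last numbers could stay or rise but not fall.

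Small nucleolar RNA host genes led the genes that stood higher in state A. Snhg12, which hosts small nucleolar RNAs on chromosome 4 (mm10 chr4:132308678-132311024), measured 289.8 FPKM in control NTC, 427 in clone 2 NTC and 288 in clone 2 C-20. It measured 29.8 in control C-20, 30.2 in control C-26 and 53.8 in clone 2 C-26. The lowest state A library was 5.35 times the highest of state B, a gap of 2.40. In clone 3 NTC was at 173, C-20 at 36.8 and C-26 at 28.6, so NTC stood well above the other clone 3 libraries and below all of state A.

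Snhg1, another host gene (chr19:8723487-8726326), measured 721, 1202 and 769.7 FPKM in the state A libraries in that same order and 182, 275 and 277 in control C-20, control C-26 and clone 2 C-26. The states did not overlap, with a gap of 1.38, and clone 3 ran from 239 in NTC through 76.3 in C-20 to 35.8 in C-26. For this gene all 3 clone 3 libraries lay within or below the range of state B. The transcript listed as 1500012F01Rik, Zfas1 in RefSeq (chr2:167062934-167065862), measured 683, 577 and 377 in state A and 54.8, 74.99 and 92.7 in state B. It overlaps Znfx1, and because strand was not stated for the counting, reads of the pair cannot be told apart. The same holds for other genes named below that overlap a neighbour, among them Cox6a2 with Itgad, Ppp1r15a with Tulp2 and Mns1 with Tex9.

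Gm11974 (Snhg15) measured 159.9, 154 and 62.9 FPKM in control NTC, clone 2 NTC and clone 2 C-20 and 18.9, 21.6 and 19.9 in control C-20, control C-26 and clone 2 C-26. Its clone 2 C-20 level lay well under the other state A libraries yet above all of state B. The transcript listed as 1810032O08Rik, Snhg16 in RefSeq, also had its lowest state A level in clone 2 C-20, with 72.8, 139.9 and 46.6 in state A against 14.8, 12.4 and 11.7 in state B. Of 16 host genes tested, 12 (75%) had all state A libraries above state B and 0 the reverse, beside 17.3% and 22% of all tested genes, with a median difference of 1.22 on log2(FPKM + 1) against -0.03 over all tested genes. The 4 that overlapped were Snhg3, Snhg4, 2810008D09Rik and Gas5, with median differences of -0.44, 0.40, 0.36 and 0.23.

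**Figure D2:**
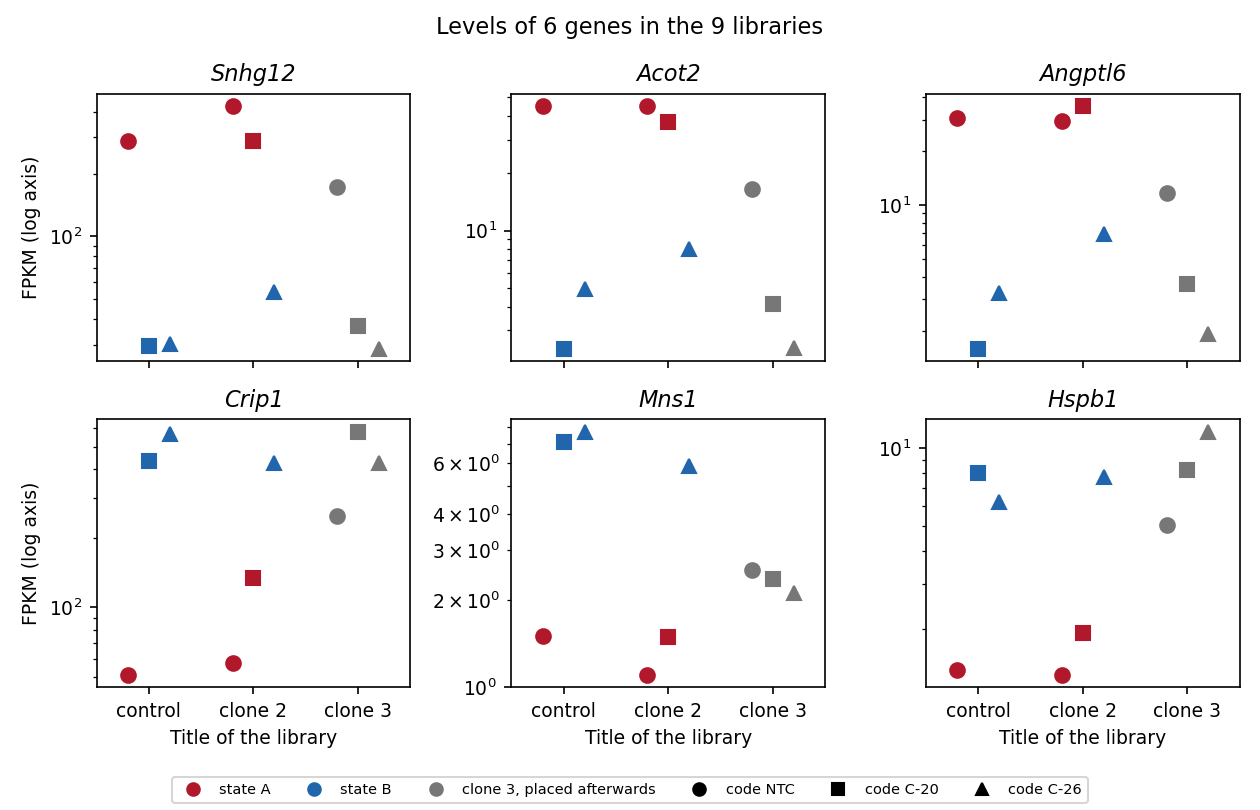
FPKM on log axes of 6 genes, 3 higher in state A (top) and 3 higher in state B (bottom), with 1 point per library, arranged by title, coloured by state and shaped by code. Snhg12 stands at 288 or more in state A and at 53.8 or less in state B, and Mns1 in clone 3 lies between 2.12 and 2.55.

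Acot2 and Angptl6 had the same pattern at lower levels. Acot2, a mitochondrial acyl-CoA thioesterase on chromosome 12 (chr12:83987861-83993877), measured 44.9 FPKM in control NTC, 45.2 in clone 2 NTC and 37.0 in clone 2 C-20, against 2.39 in control C-20, 4.95 in control C-26 and 8.05 in clone 2 C-26. Its near-identical neighbour Acot1 also had state A above state B, and reads of the pair may be divided between them, so each level is uncertain. Angptl6, a secreted angiopoietin-like protein (chr9:20873808-20879822), measured 30.4, 29.5 and 35.8 in the state A libraries and 1.58, 3.24 and 6.91 in those of state B. It overlaps Shfl. Clone 3 NTC stood at 16.6 for Acot2 and 11.7 for Angptl6, while clone 3 C-20 and C-26 lay within the range of state B for Acot2, at 4.14 and 2.44, and for Angptl6, at 3.62 and 1.93.

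Other genes of state A with no common pathway included Cox6a2, the muscle-type form of a cytochrome c oxidase subunit, with 15.1, 10.5 and 10.3 FPKM in state A and 0.147, 0.380 and 1.52 in state B. Cdsn, corneodesmosin of the cornified skin, had 12.9, 10.9 and 9.90 in state A and 0.611, 0.948 and 2.11 in state B. Chka, choline kinase alpha, had 120.3, 149.8 and 127 in state A and 25.7, 24.9 and 41.6 in state B. These 3 also had no overlap between states, though the lower state B values of Cox6a2 and Cdsn are below the FPKM minimum of 1. Soat2, which esterifies cholesterol, measured 7.25, 14.1 and 5.41 in state A and 0.0783, 0.826 and 1.503 in state B, of which the lowest are below the FPKM minimum of 1. Car6, a secreted carbonic anhydrase, measured 4.78, 2.55 and 2.15 in state A and at most 0.155 in state B, so its ratio rests on very low values.

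ATF4 target genes also stood higher in state A. Trib3, a pseudokinase that restrains the same response, measured 183, 218 and 187 FPKM in state A and 17.1, 53.6 and 79.8 in state B (chr2:152337425-152344060). Ppp1r15a, the phosphatase subunit that restores translation, measured 69.8, 109 and 73.6 in state A and 31.0, 29.7 and 30.6 in state B. Both were separated without overlap, and in clone 3 both were highest in NTC and lowest in C-26. Clone 3 levels in the order NTC, C-20, C-26 were 170.4, 80.2 and 48.9 for Trib3 and 40.3, 12.5 and 10.3 for Ppp1r15a.

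Atf5, a stress transcription factor, measured 246, 126 and 157 FPKM in state A and 14.1, 46.3 and 46.9 in state B, and overlaps Nup62. Stbd1, a glycogen-binding protein, measured 49.6, 93.7 and 74.7 in state A and 7.83, 14.2 and 20.2 in state B. Atf4 itself measured 535, 468 and 359 in state A and 206, 311 and 281 in state B. Its states did not overlap, with a gap of 0.21 and a median difference of 0.73. Of 36 ATF4 and amino acid stress genes tested, 24 (66.7%) had state A above state B and 0 the reverse, beside 17.3% and 22% of all tested genes. Their median difference was 0.77 on log2(FPKM + 1), against -0.03 over all tested genes. Overlapping members included Psat1 and Slc7a11, with median differences of -0.02 and 0.07.

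Genes of ribosome synthesis followed with smaller differences. Of 38 ribosome biogenesis genes, 26 (68.4%) had state A above state B and 0 the reverse, beside 17.3% and 22% of all tested genes. Their median difference was 0.56, against -0.03 over all tested genes. Wdr12, a factor of the large-subunit assembly pathway, measured 67.8, 62.4 and 49.6 FPKM in state A and 26.7, 28.3 and 31.1 in state B. Nop58, a core small nucleolar protein, measured 381, 372 and 289.9 in state A and 192, 203.3 and 181 in state B. Of 49 cytosolic ribosomal protein genes, 30 (61.2%, beside the same 17.3%) had state A above state B and 0 the reverse, with a median difference of 0.28. Rpl13a measured 1589, 1131 and 1104 in state A and 663, 693 and 717 in state B. Ribosomal protein genes have many processed copies in the genome, so their levels are uncertain. Myc, a transcription factor that drives ribosome synthesis, measured 432, 554 and 292 in state A and 88.4, 90.5 and 153 in state B, again without overlap.

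Cholesterol synthesis genes ran the other way. Acat2, which makes acetoacetyl-CoA in the first step of the pathway, measured 11.8, 16.7 and 13.6 FPKM in state A and 64.5, 47.8 and 35.6 in state B (chr17:12943042-12960725), and reads shared with its near copy Acat3 make the level uncertain. Insig1, the sterol-regulated brake of SREBP processing, measured 5.71, 7.36 and 5.27 in state A and 37.6, 31.7 and 13.7 in state B. Both were separated. Of 25 cholesterol synthesis genes, 17 (68%) had state B above state A, 1 (Ggps1) the reverse and 7 overlapped, beside 22% and 17.3% of all tested genes in the former 2 classes. Their median difference was -1.02, against -0.03 over all tested genes. Hmgcs1 was among those that overlapped. Of 24 fatty acid genes, 10 (41.7%, beside the same 22%) had state B above state A and 3, all acyl-CoA thioesterases, the reverse, with a median of -0.36.

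Most G2/M genes also stood higher in state B, the side opposite to most ribosome biogenesis genes. Of 42 such genes, 32 (76.2%) had state B above state A and 0 the reverse, beside 22% and 17.3% of all tested genes, with a median of -0.46. Of 44 G1/S and replication genes, 19 (43.2%) had state B above state A, 0 the reverse and 25 overlapped, with a median of -0.63. Gins2, a subunit of the replicative helicase complex, measured 6.71, 9.41 and 8.21 FPKM in state A and 25.3, 29.3 and 23.6 in state B. Birc5, survivin, measured 64.0, 83.3 and 71.8 in state A and 143, 138 and 131 in state B. Neither overlapped between the states.

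Among the 16 genes with a 2-fold gap higher in state B, Crip1, a LIM-domain protein, measured 50.8, 57.7 and 134 FPKM in state A and 433, 568 and 422 in state B (chr12:113152012-113153879). Mns1, a protein of meiotic and ciliated cells, measured 1.503, 1.10 and 1.49 in state A and 7.14, 7.74 and 5.90 in state B. Hspb1, a small heat shock protein, measured 1.39, 1.33 and 1.94 in state A and 8.02, 6.19 and 7.75 in state B. S100a11, a calcium-binding protein, was abundant, at 546.5, 704 and 858 in state A and 1892, 1891 and 1882 in state B. Its 3 state B libraries were nearly level. Also in this group were Tubb4b, a beta-tubulin with near-identical relatives, Dbi, which binds acyl-CoA, Trappc1, a vesicle-tethering subunit, Urod, of heme synthesis, Cavin3 (listed as Prkcdbp), of caveolae, and Tnfsf9, the ligand of the co-stimulatory receptor 4-1BB.

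**Figure D3:**
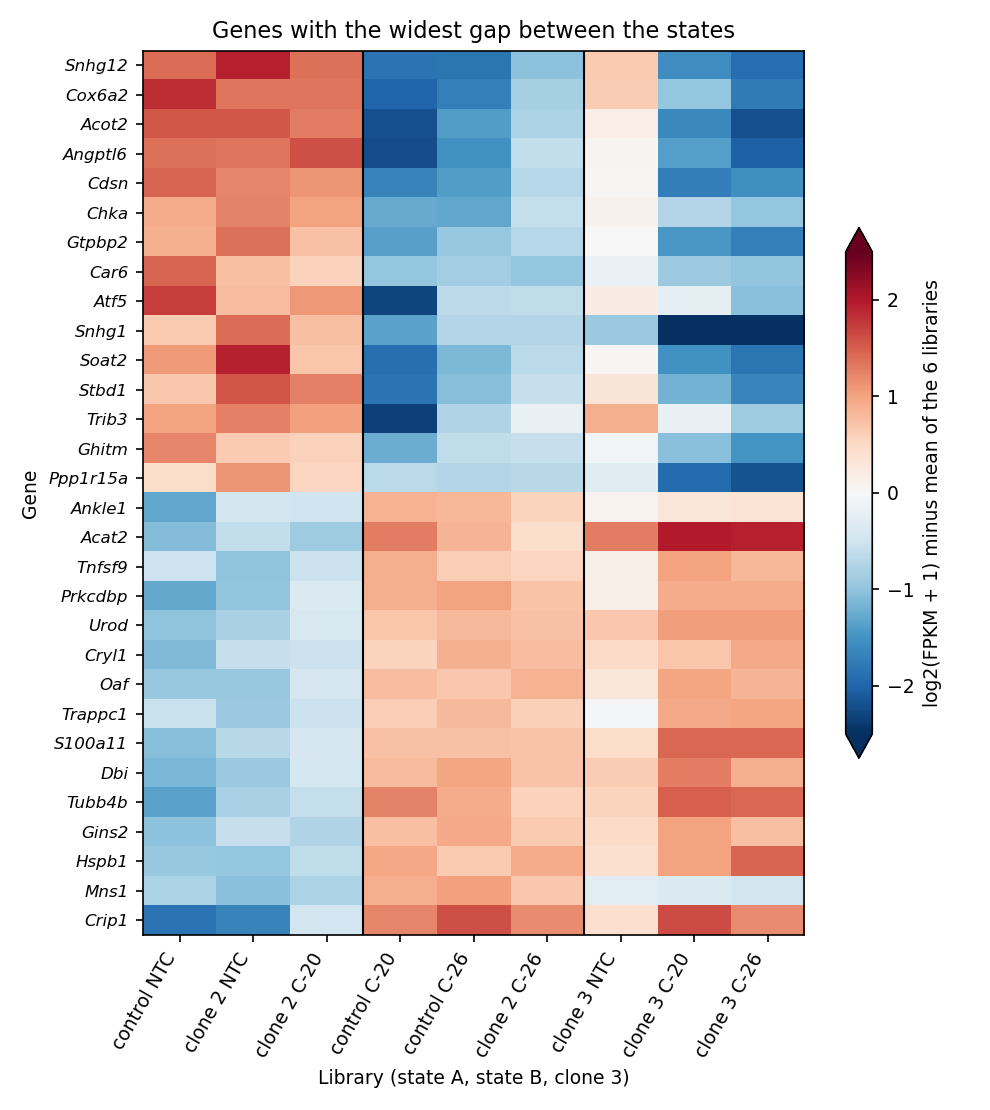
log2(FPKM + 1) of the 15 rule-named genes per direction with the largest gaps, minus the mean of the 6 control and clone 2 libraries, with 1 column per library and lines between state A, state B and clone 3. Colours end at the arrows of the scale, beyond which lie the clone 3 C-20 and C-26 values of Snhg1, at 76.3 and 35.8 FPKM.

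Among transcripts without a gene name, 2410006H16Rik measured 2599.8 FPKM in control NTC, 1424 in clone 2 NTC and 1003 in clone 2 C-20 against 126, 279.9 and 300.5 in the state B libraries. 5430416N02Rik measured 199 in control NTC, 159.7 in clone 2 NTC and 91.3 in clone 2 C-20 against 11.2, 12.7 and 18.1. Both separated the states.

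Some genes with large differences between the medians nevertheless overlapped between the states, and those given here were chosen after their values were seen. Mgp, matrix Gla protein, an inhibitor of calcification, measured 1.67 FPKM in control NTC, 2.72 in clone 2 NTC and 24.1 in clone 2 C-20, against 13.03 in control C-20, 30.1 in control C-26 and 141 in clone 2 C-26. It was lowest in NTC and highest in C-26 within each title, clone 3 included, where it measured 2.63, 23.6 and 55.3. Fos, an AP-1 subunit and immediate early gene, was highest in 2 control libraries, at 182 in C-20 and 168 in C-26, while clone 2 C-26 stood at 25.8, below control NTC at 37.9. Mgp thus followed the codes and Fos was high in the control libraries of state B.

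Further lists were counted as state A above B and state B above A, beside 17.3% and 22% of all tested genes, with the median difference. Lists with more genes higher in state B than in state A included interferon-stimulated genes (0 and 10 of 24, -0.60). Others were immediate early genes (3 and 11 of 35, -0.52) and ER chaperones (4 and 11 of 25, -0.39). NRF2 antioxidant genes (1 and 13 of 29, -0.34) were a further one, and more such lists are given under the other observations. Stat2, a transducer of interferon signals, measured 2.22, 1.78 and 3.36 FPKM in state A and 7.05, 7.47 and 5.90 in state B. Zfp36, an immediate early gene that destabilises mRNAs, measured 4.02, 3.16 and 5.68 in state A and 37.4, 29.1 and 10.0 in state B, so clone 2 C-26 lay far below the control libraries of state B. Calr, an ER chaperone, measured 169, 172 and 185 in state A and 498, 280.5 and 342 in state B. Krt8, a simple epithelial keratin, measured 86.7, 231 and 235 in state A and 435, 489 and 563 in state B.

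Lists with more genes higher in state A included p53 targets (8 and 5 of 25, 0.13). Others were chemokines and cytokines (6 and 5 of 21, 0.35) and SR splicing factors (6 and 1 of 16, 0.25). Mitochondrial ribosomal protein genes (11 and 3 of 35, 0.01) are given again under the other observations. Gadd45a, a p53 target also induced by stress, measured 138, 149 and 93.0 FPKM in state A and 15.9, 39.4 and 53.2 in state B. Within the cytokine list, Vegfa measured 53.1, 41.2 and 32.9 in state A and 9.40, 17.6 and 21.4 in state B, and the chemokine Cx3cl1 measured 7.41, 5.33 and 11.4 in state A and 23.04, 23.6 and 30.6 in state B. Both were separated, in opposite directions.

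**Figure D4:**
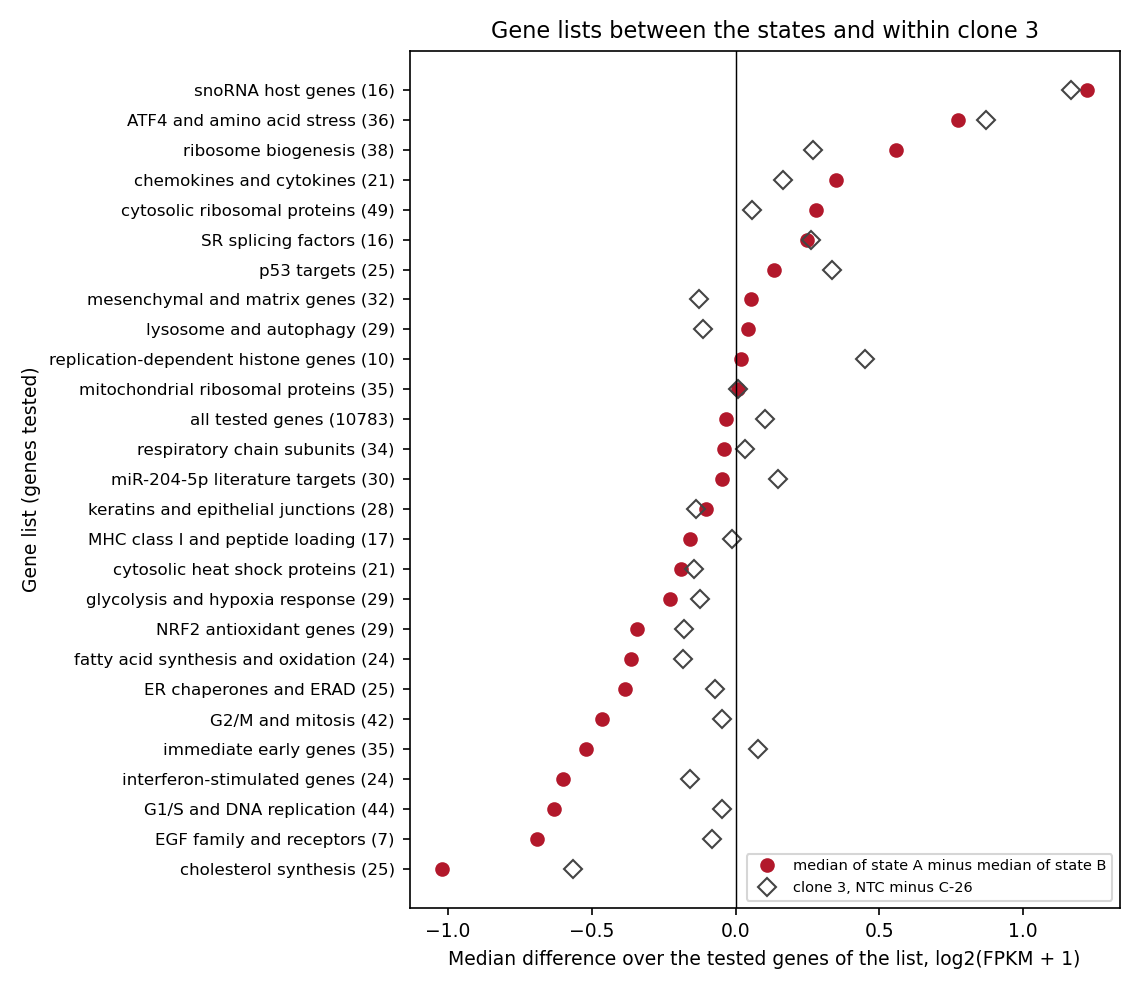
Median difference on log2(FPKM + 1) over the tested genes of each list, between the states (filled circles) and between clone 3 NTC and C-26 (open diamonds), with the number of genes tested in parentheses. Small nucleolar RNA host genes stand at 1.22 and 1.17, and cholesterol synthesis genes at -1.02 and -0.57.

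The clone 3 libraries gave values that the choice of the split did not use. In control and clone 2, NTC always lies in state A and C-26 in state B. A difference between clone 3 NTC and C-26 therefore cannot tell state from code. Across clone 3, the NTC library was higher than the C-26 library by 2-fold or more for 282 genes (2.62%) and lower for 71 (0.658%), and higher at all for 61.6% and lower for 38.4%, with 1 library per code and no replicate check. Among the 1869 genes with state A above state B, 167 (8.94%) were higher in clone 3 NTC by 2-fold or more and 90.5% were higher at all. Among the 2372 with state B above state A, 31 (1.31%) were lower by 2-fold or more and 68.3% were lower at all. Median differences of NTC minus C-26 were 0.38, -0.15 and 0.10 for the former class, the latter class and all tested genes.

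All 25 genes with a 2-fold gap towards state A were higher in clone 3 NTC than in C-26, 23 of them by 2-fold or more, with a median of 1.75. Of the 16 towards state B, 15 were lower in clone 3 NTC, 2 of them by 2-fold or more, with a median of -0.60. Against C-20, clone 3 NTC was higher by 2-fold or more for 17 of the 25 and lower for 1 of the 16, beside 1.09% and 0.399% of all tested genes, and it was higher at all for 56.9% and lower for 43% of them. The exception was Mns1, which in clone 3 measured 2.55 FPKM under code NTC, 2.37 under C-20 and 2.12 under C-26. For 24 of the 25 genes, clone 3 NTC lay within the gap between the states, and clone 3 C-26 lay at or below state B for all 25. Clone 3 C-20 lay within the gap for 5 and at or below state B for 20. The full order of NTC over C-20 over C-26 held for 24 of the 25 genes in clone 3 and 23 in clone 2 but for 6 in control, where C-20 exceeded C-26 in 6. Of the 16 genes towards state B, the reverse order held for 5 in clone 3, where C-20 exceeded C-26 in 11, for 13 in clone 2 and for 9 in control. The choice of these genes fixed the place of C-26 in clone 2 and that of NTC in control. Only the order of NTC and C-20 was thus free in clone 2, and only that of C-20 and C-26 in control. In clone 3 no order was fixed by the choice. Across the tested genes, the difference between the states and the difference between clone 3 NTC and C-26 had a Pearson r of 0.556 and a Spearman rho of 0.521, a description across genes that share the same libraries.

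**Figure D5:**
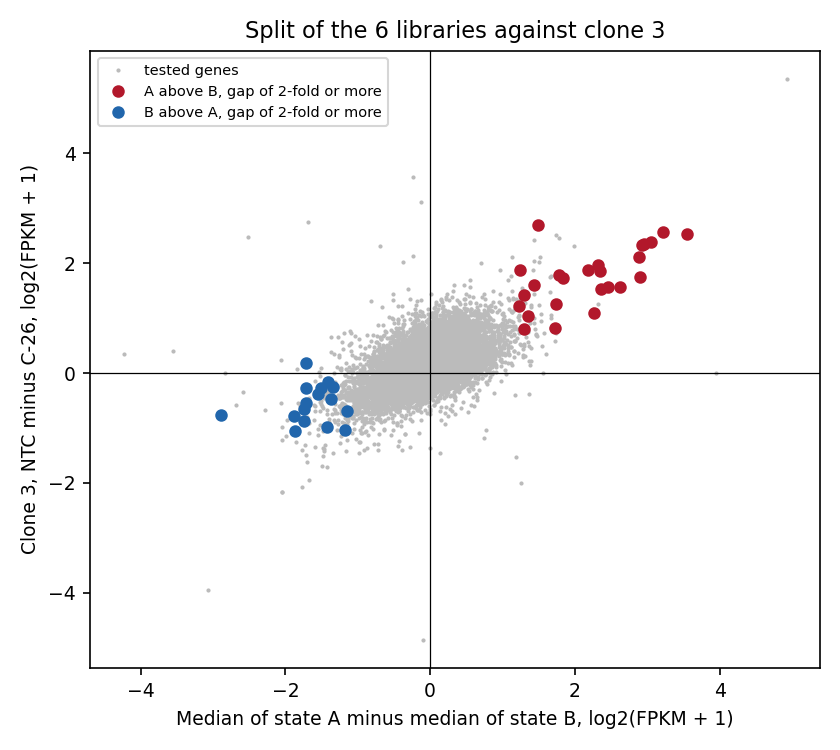
Each tested gene by the median of state A minus the median of state B (horizontal) and clone 3 NTC minus clone 3 C-26 (vertical), both on log2(FPKM + 1). The 25 red genes, with a 2-fold gap towards state A, all lie above 0 on the vertical axis with a median of 1.75, and 15 of the 16 blue genes towards state B lie below 0.

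The lists differed in how far the difference between clone 3 NTC and C-26 took the direction of the split. Beside them, 61.6% of all tested genes were higher in clone 3 NTC than in C-26 and 38.4% lower, with a median of 0.10. Clone 3 NTC was higher than C-26 for all 16 host genes (median 1.17) and all 36 ATF4 and amino acid stress genes (median 0.87), and lower for 23 of 25 cholesterol synthesis genes (median -0.57). Ribosome biogenesis genes were higher for 30 of 38 (median 0.27). Cytosolic ribosomal protein genes were higher for 31 of 49 (median 0.06, which turned to -0.01 with median ratio scaling), a share close to that of all tested genes, and against C-20 their median was -0.13. G2/M genes were lower for 24 of 42 (median -0.05) and G1/S genes for 24 of 44 (median -0.05). Immediate early genes had a median of 0.08, which turned to -0.05 on the authors' quantile-normalized values, and interferon-stimulated genes one of -0.16. Host genes, ATF4 genes and cholesterol genes thus had medians further from 0 in clone 3 than cell cycle genes, though no test compared these lists.

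Promoter windows were available for 8682 of the tested genes. An E-box, on either strand, was in a window of 12.3% of these genes, of 16.3% of the genes with state A above state B and of 9.88% of those with state B above state A. The C/EBP-ATF response element was in 2.51%, 3.12% and 2.197%, and the sterol regulatory element in 1.26%, 1.06% and 1.52%. Among the 23 genes with a 2-fold gap towards state A and a window, 2 (Car6 and Gm11974) had an E-box and 2 (Cdyl and Trib3) a C/EBP-ATF response element. The other listed host genes among the 23, Snhg12, Snhg1, Snhg7, 1500012F01Rik and 1810032O08Rik, had no E-box. The ATF4-list genes Atf5, Stbd1 and Ppp1r15a had no C/EBP-ATF response element. Among 12 towards state B, 2 (S100a11 and Urod) had an E-box. A match is a string of letters and no evidence of binding.

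Transcript length and GC content varied little between the larger classes. Median length was 2784 nt in genes with state A above state B, 2826.5 nt in those with state B above state A and 2865 nt in all tested genes, and median GC was 49.3%, 51.3% and 50.5%. The 25 and 16 genes with a 2-fold gap were shorter, at medians of 1880.25 and 1547.5 nt. Their part in the split was not tested beyond a length and GC correction, after which the first component kept all state A libraries above state B.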

How the data were processed

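Polyadenylated RNA was sequenced. Per the submitters' processing notes, Cufflinks 2.2.1, TopHat2 2.0.13 and Bowtie2 2.2.3 were used with genome build mm10. The authors deposited FPKM per gene, the unit used here. A second deposited table held log2 values, log2(FPKM + 1) after quantile normalization by the authors, for the 13414 genes above 0 in all libraries. It served as an alternative. Read counts were not used here, so absolute depth is unknown. Sums of FPKM ran from 439018 to 560092 per library.

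From FPKM, log2(FPKM + 1) was taken for genes at 1 or more in at least 3 libraries. Principal components, gaps and medians were computed in Python 3.11.15 with numpy 2.4.6, pandas 2.3.3 and scipy 1.17.1, figures with matplotlib 3.10.9, and the gap count was checked on simulated data. The states were given by measured values, so no test was run. The members and lists were chosen with earlier results of these data known. Genes named are the 15 per direction with the largest gap, the 3 markers, up to 4 per list and 5 per direction in clone 3. Some others, Aldh1l2, Cdyl, Snhg3 and Psat1 among them, were named after their values were seen. Promoters came from RefSeq GRCm38.p6. Alternatives were a pseudocount of 0.1, no filter, a filter over the 6 libraries, median ratio scaling, quantile values, a length and GC correction with splines of 4 degrees of freedom, and leaving out each library.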

Additional observations from a re-analysis of the deposited data

How the results depend on the processing

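No paired analysis was possible because no result comes from a test. The numbers of genes separated in each direction stayed within 1.5 times under all 12 alternatives, though which direction had more turned under 3 of them, the median ratio scaling, the quantile values and the length and GC correction. The numbers with a 2-fold gap did not: they ran from 25 to 62 towards state A and from 11 to 102 towards state B. The first component placed state A above state B, and clone 3 in the order NTC, C-20, C-26, under each of them. The split was drawn from values of the same 6 libraries, so the place of the states on this component is no independent check. Leaving out 1 library gave 2104 to 2693 genes with state A above state B and 2657 to 3066 the reverse. These numbers could stay or rise but not fall, since no gap narrows when a library is left out. Leaving out 1 library also gave 56.4% to 64.3% of variance on the first component. Clone 3 NTC then stood at 30.8 to 52.3, C-20 at 7.37 to 18.6 and C-26 at -1.86 to 12.5. Same-direction shares were 96.3% to 100% and 85.4% to 96.1%. The clone 3 median of literature targets of miR-204-5p turned from 0.146 to -0.0472 with the length and GC correction. The cause was not tested. Of 118 named genes, 117 remained separated with that correction (Itga5 overlapped) and 117 with median ratio scaling (Hspa8 overlapped). With unknown depth, genes near an FPKM of 0 have an unknown error.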

Other observations

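The remaining lists are given as genes with state A above B and state B above A (17.3% and 22% of all tested genes), the median difference and the clone 3 median of NTC minus C-26 on log2(FPKM + 1). Glycolysis and hypoxia genes had 3 and 6 of 29, -0.23 and -0.12. Cytosolic heat shock protein genes had 2 and 4 of 21, -0.19 and -0.15. MHC class I and peptide loading genes had 3 and 6 of 17, -0.16 and -0.01, the last turning to 0.05 with the length and GC correction. Keratins and epithelial junction genes had 3 and 5 of 28, -0.10 and -0.14, and EGF family genes 1 and 2 of 7, -0.69 and -0.08.

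Mesenchymal and matrix genes had 1 and 2 of 32, 0.05 and -0.13, and the first median turned to -0.28 without clone 2 C-20. Lysosome genes had 4 and 4 of 29, 0.04 and -0.11. Respiratory chain genes had 3 and 6 of 34, -0.04 and 0.03, and mitochondrial ribosomal protein genes 11 and 3 of 35, 0.01 and 0.01. With median ratio scaling, both respiratory medians changed sign, to 0.04 and -0.04, and the clone 3 median of the mitochondrial ribosomal genes to -0.06. Histone genes had 1 and 0 of 10, 0.02 and 0.45, with all 10 higher in clone 3 NTC. Literature targets of miR-204-5p had 5 and 8 of 30, -0.05 and 0.15, the first of which was 0.00 with median ratio scaling. Among them, Ezr, a membrane-cytoskeleton linker, measured 47.7, 54.6 and 57.5 FPKM in state A and 111, 112 and 110.0 in state B, and Creb1, a transcription factor, 17.9, 20.2 and 18.9 in state A and 11.4, 13.3 and 12.9 in state B.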
